A study of Arabidopsis thaliana with 4 samples.

Results

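The genes described here are LHCB4.1, LHCB4.2 and LHCB4.3, which encode the chlorophyll-binding antenna protein CP29, and PORB, which encodes a protochlorophyllide reductase. They were chosen by name, and each had 1 probe set on the array, so that 4 genes are described of 13356 with a probe set for a single gene. The probe sets were 251082_at for LHCB4.1 (AT5G01530), 258993_at for LHCB4.2 (AT3G08940), 265722_at for LHCB4.3 (AT2G40100) and 253871_at for PORB (AT4G27440).

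RNA of Arabidopsis thaliana was hybridised to 4 Affymetrix arrays, 1 for each combination of light quality and temperature, with no repeated condition. All seedlings were of the accession La-er with a mutation in PHYA, the gene of phytochrome A, in every group, controls included. The labels name the allele as phyA-2 except for the low R:FR group at 16 °C, where they give phyA alone. The high R:FR groups stood in white light of 100 µmol per square metre per second with a red to far-red ratio (R:FR) of 4.4, at 16 or at 22 °C, until they were 5 days old. The low R:FR groups were moved to an R:FR of 0.1 at the same temperature for the last 24 h and were harvested at the same age. The tissue was cotyledon with some hypocotyl, and nothing states how many plants each array stands for. Growth stage at that age was not measured, and it cannot be told apart from temperature.

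CP29 is one of the minor antenna proteins of photosystem II. It sits between the reaction centre core and the trimeric major antenna, and it passes on excitation energy and takes part in its dissipation. LHCB4.1 and LHCB4.2 encode similar proteins, while LHCB4.3 encodes a form with a shorter C-terminus whose transcript is known to accumulate in strong light. Chlorophyll synthesis supplies the pigment that these proteins bind, and its light-dependent step is the reduction of protochlorophyllide by the POR enzymes, of which PORB is expressed in light-grown green tissue. A low R:FR is the light signal of neighbouring vegetation and is read by phytochromes.

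The values are signals on a linear scale, 1 per probe set, scaled as whole arrays. Probe sets bind with different strength, so signals are compared between arrays and not between genes. Of the 22746 probe sets that are no controls, 13648 were bright enough on average to be counted as measured, and all 4 genes were among them. With 1 array per condition there is no replicate spread and no test of a single pair of arrays, and precision is limited by how few arrays there are. As a stand-in for error, the local SD is a robust SD of the same log2 difference over those 500 probe sets whose mean signal is closest. It contains true responses of those genes as well as noise. The transcripts spiked in at hybridization were 18 probe sets with signals between 34.5 and 3280. In the comparisons of single arrays their log2 differences had an SD of 0.21 to 0.23 and a largest size of 0.44 to 0.70. They cover only the steps from hybridization onwards. Whole-array facts that bear on the values are the medians, between 36 and 40.6, and the mean log2 ratio of 3′ over 5′ probe sets in 6 control pairs. This ratio, a measure of RNA and label quality, was 0.82 in high and 0.54 in low R:FR at 16 °C, and 0.73 in high and 0.64 in low R:FR at 22 °C. The array of low R:FR at 16 °C stood apart, with 259 measured probe sets at least 2-fold under each of the rest. This number was 70 for high R:FR at 16 °C, and at 22 °C it was 9 for high and 17 for low R:FR. LHCB4.2, LHCB4.3 and PORB were lowest on the array that stood apart as well. The next array was higher by log2 0.48, 0.11 and 0.10 in that order, beside local SDs of 0.18, 0.42 and 0.31. Only the step of LHCB4.2 was thus past its local SD. The share of all measured probe sets that were lowest on that array was not counted. The part of these features in the differences below was not tested. The leaf marker RCA, the gene of rubisco activase, was bright on all arrays, at 4327 (high R:FR) and 4149 (low R:FR) at 16 °C and at 4169.5 and 3872 at 22 °C. It was the 1 gene of 8 in the leaf list with a named probe set.

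LHCB4.2 had the widest spread of the 4 genes. At 16 °C the signal was 1134 in high and 814 in low R:FR, and at 22 °C it was 1506 in high and 1164 in low R:FR. It was thus highest in high R:FR at 22 °C and lowest in low R:FR at 16 °C, 1.85-fold apart (log2 0.89), with the other two arrays between them. In the order of the 4 arrays, the steps below the highest (log2 0.37) and above the lowest (0.48) were larger than the local SD of those pairs, and the middle step (0.04) was not. Both the low R:FR array and the array at 16 °C were the lower one in every pair. The low minus high R:FR difference was log2 -0.48 at 16 °C (local SD 0.18) and -0.37 at 22 °C (local SD 0.20). Of the 500 probe sets nearest in signal, 16 had a lower value than LHCB4.2 at 16 °C and 23 at 22 °C. In a bulk sample such as this one, fewer cells of a type and less RNA per cell cannot be told apart.

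The difference of 16 minus 22 °C for LHCB4.2 was log2 -0.41 in high R:FR (local SD 0.29) and -0.52 in low R:FR (local SD 0.34). Probe sets of similar brightness lay on the other side of 0 in these comparisons, with medians of 0.14 and 0.29, and 31 and 29 of the 500 were lower than LHCB4.2. The light responses at the 2 temperatures differed by log2 -0.11 (local SD 0.24), which is within the local spread. PYK10, a gene of a beta-glucosidase that is abundant in root and hypocotyl and that stood in the list of root markers, was also lowest in low R:FR at 16 °C. Its signal was 2024 in high and 1083 in low R:FR at 16 °C, and 2913 in high and 2834.5 in low R:FR at 22 °C. The root hair gene EXPA7 had signals of 5 to 15.8 and was too dim to count as measured, and the other 2 genes of that list had no named probe set. The part of tissue makeup in the LHCB4.2 values was not tested.

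**Figure D1:**
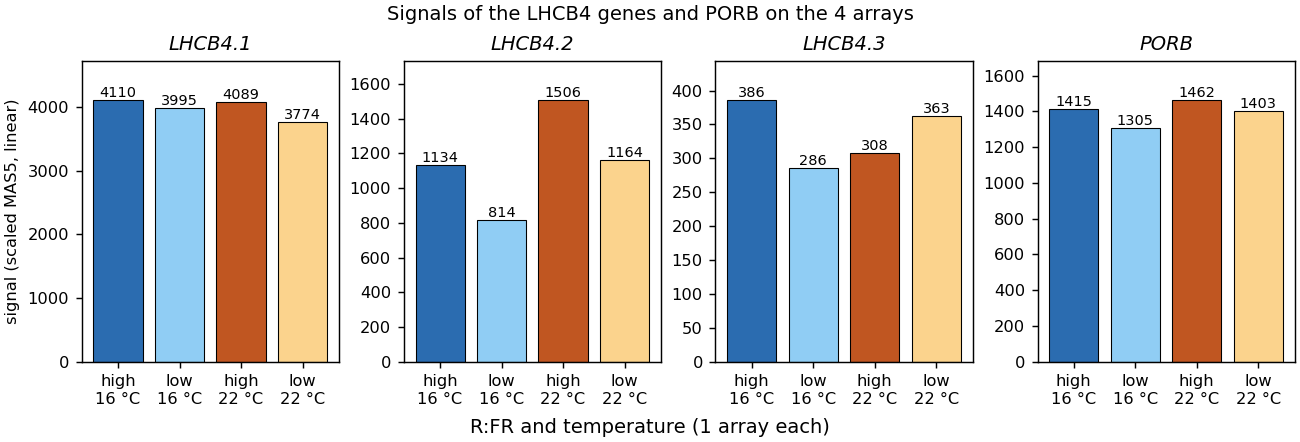
Signals of LHCB4.1, LHCB4.2, LHCB4.3 and PORB (vertical axes, linear, each from 0 and with its own scale) on the 4 arrays, labelled by R:FR (high or low) and temperature, 1 array per bar and so with no error bars. LHCB4.2 runs from 814 to 1506 and LHCB4.3 from 286 to 386, while LHCB4.1 runs from 3774 to 4109.8 and PORB from 1305 to 1462.5.

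LHCB4.3 had its light responses in opposite directions at the 2 temperatures. Its signal was 386 in high and 286 in low R:FR at 16 °C, but 308 in high and 363 in low R:FR at 22 °C. The highest array was thus high R:FR at 16 °C and the lowest low R:FR at 16 °C, 1.35-fold apart, and both arrays of 22 °C lay between. Among the steps between neighbours in this order, that between the arrays of 22 °C was the one that exceeded its local SD. It fell to log2 0.18 with arrays scaled to the same median. The light response was log2 -0.43 at 16 °C (local SD 0.28) and 0.24 at 22 °C (local SD 0.21). Their difference was -0.67 (local SD 0.35), and 43 of the 500 probe sets nearest in signal had a larger difference in size. It adds the error of 4 arrays, and the spiked transcripts had an SD of 0.36 in this comparison with a largest size of 1.14. The temperature difference of LHCB4.3, 16 minus 22 °C, was log2 0.32 in high R:FR (local SD 0.33) and -0.35 in low R:FR (local SD 0.48), both within the local SD. The opposite directions are 1 array against 1 array each, and the difference could not be tested.

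LHCB4.1 had the narrowest range of the 4 genes. It was 4109.8 in high and 3995 in low R:FR at 16 °C, and 4089 in high and 3774 in low R:FR at 22 °C. The arrays were thus within 1.09-fold of each other, and no pair of neighbours in their order differed by more than its local SD. Over the 4 arrays the range was log2 0.12, and 17 of the 500 nearest probe sets had a smaller one, against a median range of 0.38 among them. The light response was log2 -0.04 at 16 °C and -0.12 at 22 °C (local SD 0.14 in both), the latter beside a median of -0.11 over similarly bright probe sets. The temperature difference was log2 0.01 in high R:FR (local SD 0.21) and 0.08 in low R:FR (local SD 0.25). These depended on the scaling of the arrays. They were -0.03 and -0.05 with quantile normalization and 0.13 and 0.26 with arrays scaled to the same median. The local SDs belong to the main scaling, where similarly bright probe sets had medians of 0.14 and 0.29. Scaling to the same median also moved the median of all measured probe sets, to 0.07 in high and 0.12 in low R:FR. Between 13 and 21 probe sets on each array were brighter than that of LHCB4.1, and its signals lay above the brightest spiked transcript at 3280. Whether the signal still rises in proportion to the transcript at that brightness was not tested.

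PORB also had a narrow range. Its signal was 1415 in high and 1305 in low R:FR at 16 °C, and 1462.5 in high and 1403 in low R:FR at 22 °C. The low R:FR array was the lower one at both temperatures, by log2 -0.12 (local SD 0.17) and -0.06 (local SD 0.18). At 22 °C the 500 probe sets nearest in signal had a median of -0.12, so PORB lay above it. With quantile normalization its light response at 22 °C was -0.0011. The 16 minus 22 °C difference was -0.05 in high R:FR (local SD 0.26) and -0.10 in low R:FR (local SD 0.31). These values were smaller than the local SD, but the 500 probe sets nearest in signal had medians of 0.15 and 0.30. Of these, 124 in high and 93 in low R:FR were lower than PORB. In low R:FR PORB lay under that median by more than the local SD. The differences too depended on the scaling. They were 0.07 in both lights with arrays scaled to the same median, and -0.19 and -0.33 with quantile normalization. The local SDs and these medians belong to the main scaling. With that scaling, no neighbours in the order of the 4 arrays differed by more than their local SD. The range over the arrays was log2 0.16, and 27 of the 500 nearest probe sets had a smaller one.

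**Figure D2:**
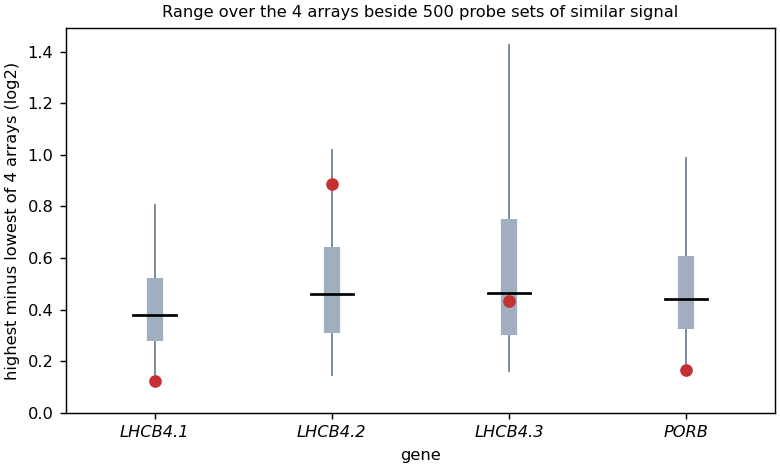
Highest minus lowest log2 signal over the 4 arrays (vertical axis) for each gene (red points), beside the same range of the 500 probe sets closest in brightness (black line, median; thick bar, 25th to 75th percentile; thin line, 5th to 95th percentile). LHCB4.1 at 0.12 lies under the thin line and PORB at 0.16 near its lower end, LHCB4.3 at 0.43 near the median, and LHCB4.2 at 0.89 above the thick bar.

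Over the 4 genes together, 0 of 4 passed 2-fold in any of the 5 comparisons. In the light comparison at 16 °C, 1.84% of all measured probe sets passed 2-fold upwards and 2.9% downwards, and at 22 °C the shares were 1.01% and 0.498%. For the difference between the light responses the shares were 2.31% and 4.16%. For 16 against 22 °C they were 1.11% higher and 3.17% lower under high R:FR, with 1.62% higher and 6.61% lower under low R:FR. A count of 0 of 4 is near these shares. In low R:FR at 16 °C all 4 genes had a value below 0, as did 49% of measured probe sets, and at 22 °C 3 of 4 did, against 48.1%. Bright probe sets lay lower in the comparison at 22 °C. The 500 nearest in signal had medians of -0.11 for LHCB4.1 and LHCB4.2, -0.12 for PORB and -0.02 for LHCB4.3. The median of all measured probe sets was log2 0.01 in both light comparisons and -0.04 and -0.05 in the temperature comparisons.

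**Figure D3:**
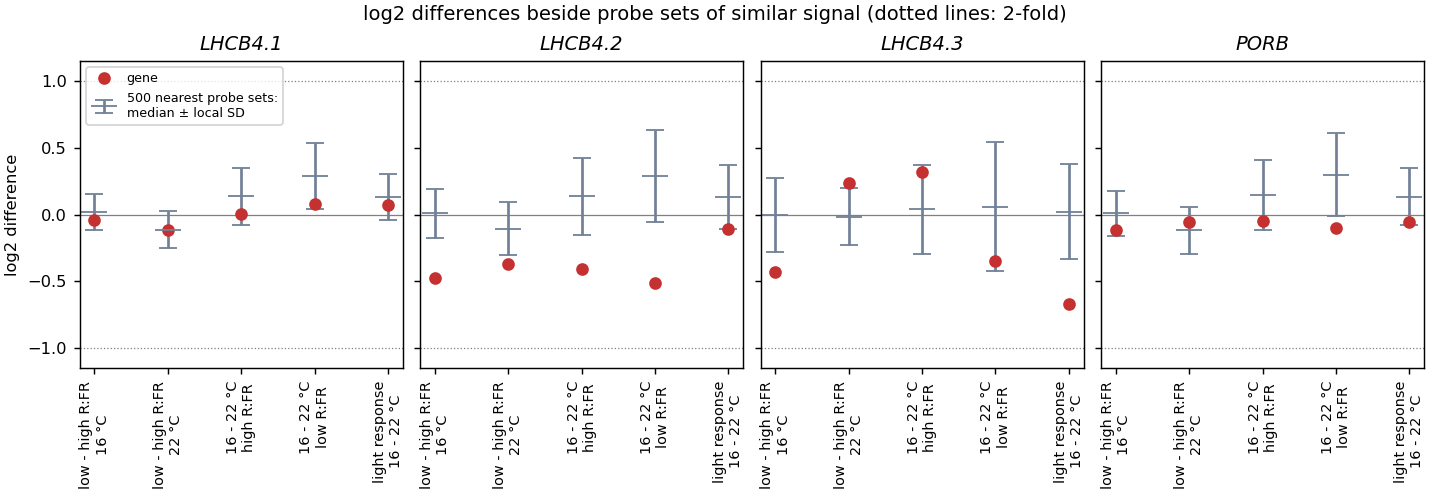
log2 differences (vertical axis) of each gene (red points) in the 5 comparisons (horizontal axis), beside the median and local SD of the 500 probe sets closest in brightness (grey lines and bars); dotted lines mark 2-fold. LHCB4.2 lies below the grey bars in the 4 comparisons of single pairs of arrays, by -0.37 to -0.52, LHCB4.3 changes side between the temperatures, and no point reaches a dotted line.

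A fit with 1 term for light and 1 for temperature used all 4 arrays and took the departure from additivity as its error, with 1 residual degree of freedom. This error is not the spread between plants. In that limma fit, with Benjamini-Hochberg adjustment over the 13648 measured probe sets, the light effect on LHCB4.2 was log2 -0.42 with an SE of 0.12 (adjusted p = 0.613). The temperature effect, 16 minus 22 °C, was -0.46 with an SE of 0.12 in the limma fit (adjusted p = 0.0952). The lower array was the low R:FR one, or the 16 °C one, in both pairs of each effect, but neither effect passed the threshold of 0.05 that 0.0513% of measured probe sets passed for light and 1.4% for temperature. With quantile normalization the temperature effect of LHCB4.2 was -0.63 and passed in the limma fit, at an adjusted p of 0.0469. Over the other alternatives its adjusted p lay between 0.0952 and 0.475.

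None of the other 3 genes passed in the limma fit for either effect. The light effect was log2 -0.08 for LHCB4.1 (SE 0.09, adjusted p = 0.912 by limma), -0.10 for LHCB4.3 (SE 0.19, adjusted p = 0.946 by limma) and -0.09 for PORB (SE 0.11, adjusted p = 0.914 by limma). The temperature effects were 0.04, -0.01 and -0.08 for these genes, and each turned sign under 1 other scaling of the arrays. The largest SE of the 4 was that of LHCB4.3, whose light responses ran in opposite directions, so that their average describes neither temperature.

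The 3 CP29 genes thus ran in different orders over the 4 arrays, and whether their patterns differ was not tested. No step between neighbours in the order of LHCB4.1 was past its local SD, and of LHCB4.3 only that between the arrays of 22 °C. The highest and lowest arrays of LHCB4.3, both of 16 °C, also differed by more than their local SD (log2 0.43, local SD 0.28). With log2 signals centred on each gene's own mean, the root mean square distance was 0.31 between LHCB4.1 and LHCB4.2, 0.31 between LHCB4.2 and LHCB4.3 and 0.19 between LHCB4.1 and LHCB4.3. PORB was nearest to LHCB4.1, at 0.07. LHCB4.1 and LHCB4.2 have similar coding sequences, and how far their transcripts bind to each other's probe set was not tested.

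By the same distance, the named genes most like each of the 4 were taken from 1065 measured probe sets with a gene symbol, over 4 arrays. The nearest to LHCB4.1 was RCA at 0.018, with signals from 3872 to 4327, followed by PM-ANT, an adenine nucleotide transporter gene, at 0.020 and LUL2 at 0.025. Nearest to PORB were NQR at 0.010, SECE1, a gene of the thylakoid protein translocase, at 0.016 and UBC32, a ubiquitin-conjugating enzyme gene, at 0.024. A nearly flat pattern has many neighbours, and 141 and 127 of the 1065 lay within a distance of 0.1 of LHCB4.1 and PORB. The pattern of LHCB4.2 had 5 within that distance, the nearest being ATCRT1 at 0.061, TPLATE, which acts in endocytosis, at 0.080 and PRN, a pirin gene, at 0.084. LHCB4.3 had 26, led by UBP25, a ubiquitin-specific protease gene, at 0.024, ICU2, the gene of the catalytic subunit of DNA polymerase alpha, at 0.027 and the kinase gene AME3 at 0.034.

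The antenna genes and PORB were set beside other genes of the same processes. Of 24 listed genes of light-harvesting and related proteins, the 3 LHCB4 genes were those with a named probe set, so the major antenna and the photosystem I antenna were not analysed here. Of 22 nuclear genes of photosystem subunits 4 were measured, and their light responses lay between log2 -0.13 and -0.03. PSBW and PSBY, of photosystem II, were at log2 -0.07 and -0.09 in low R:FR at 16 °C and at -0.06 and -0.13 at 22 °C. PSAE1 and PSAN, of photosystem I, were at -0.04 and -0.03 at 16 °C and at -0.12 and -0.04 at 22 °C. All 4 were below 0 at both temperatures, as were 25.2% of all measured probe sets. Probe sets of similar brightness had medians of 0.02 at 16 °C and -0.11 at 22 °C for each of these genes. PSBW and PSAN turned to 0.03 and 0.06 at 22 °C with quantile normalization. LHCB4.2 lay below each of these 4 genes in the comparisons of light and of temperature, by values of -0.37 to -0.52 against a lowest value of -0.13 among them.

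Among 29 chlorophyll synthesis genes a named probe set existed for 9, and 8 of these were measured, HEMA2 being too dim at 14 to 33.7. Beside PORB these were GSA1 and HEMB1 of the early steps to the pyrrole ring, HEME1 and HEME2, which encode uroporphyrinogen decarboxylases, CHLI2 of the magnesium chelatase, CHLM, which encodes the methyltransferase after it, and GGR, which encodes the reductase that makes the phytol tail. For light at 22 °C, 6 of the 7 were below 0, with a median of log2 -0.24, against 48.1% of all measured probe sets. PORB at -0.06 was nearer to 0 than any of the 7. Many bright probe sets lay lower in this comparison. The 500 nearest in signal had medians of -0.12 for CHLM and for PORB, -0.11 for GGR, -0.05 for HEME2 and 0.01 for CHLI2. CHLM itself was at -0.13. HEME2 went from 562 in high to 414 in low R:FR at 22 °C (log2 -0.44, local SD 0.18), and HEMB1 from 852 to 660.2 (log2 -0.37, local SD 0.18). CHLI2 was on the other side, with signals of 162 and 200.0 (log2 0.31, local SD 0.23). At 16 °C the 7 genes had a median of -0.04, between -0.18 for HEME1 and 0.06 for HEME2. None passed 2-fold at either temperature.

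In the comparison of temperatures within low R:FR these genes lay on the other side of 0 from LHCB4.2. All 7 had a higher signal at 16 than at 22 °C, with a median of log2 0.39 and values from 0.15 for HEMB1 to 0.56 for CHLI2. With quantile normalization, however, CHLM, at 0.20, came to -0.0047, HEMB1 to 0.03 and GGR, at 0.29, to 0.06. The rest lay between 0.33 and 0.61 with that scaling. In high R:FR 5 of 7 were higher, with a median of 0.23, HEMB1 being at -0.23 and HEME2 at -0.09, the latter 0.03 with arrays scaled to the same median. Of all measured probe sets 45.9% were above 0 under low and 45.5% under high R:FR, but brighter probe sets lay higher. The 500 nearest to CHLM in signal had medians of 0.30 and 0.14, and those nearest to HEME1 of 0.12 and 0.07. Those nearest to CHLI2, the dimmest of the 7, had medians of -0.04 and 0.02. In low R:FR the median was 0.21 for those nearest to HEMB1 and 0.29 for GGR. HEMB1 and CHLM were thus under the median there, GGR was level with it and the rest were above it. CHLI2 had signals of 304 at 16 and 162 at 22 °C in high R:FR (log2 0.91, local SD 0.34), and passed 2-fold, at 1.03, with arrays scaled to the same median. In the limma fit the temperature effect of CHLI2 was 0.73 (SE 0.16, adjusted p = 0.0824), and no listed gene of chlorophyll synthesis passed.

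**Figure D4:**
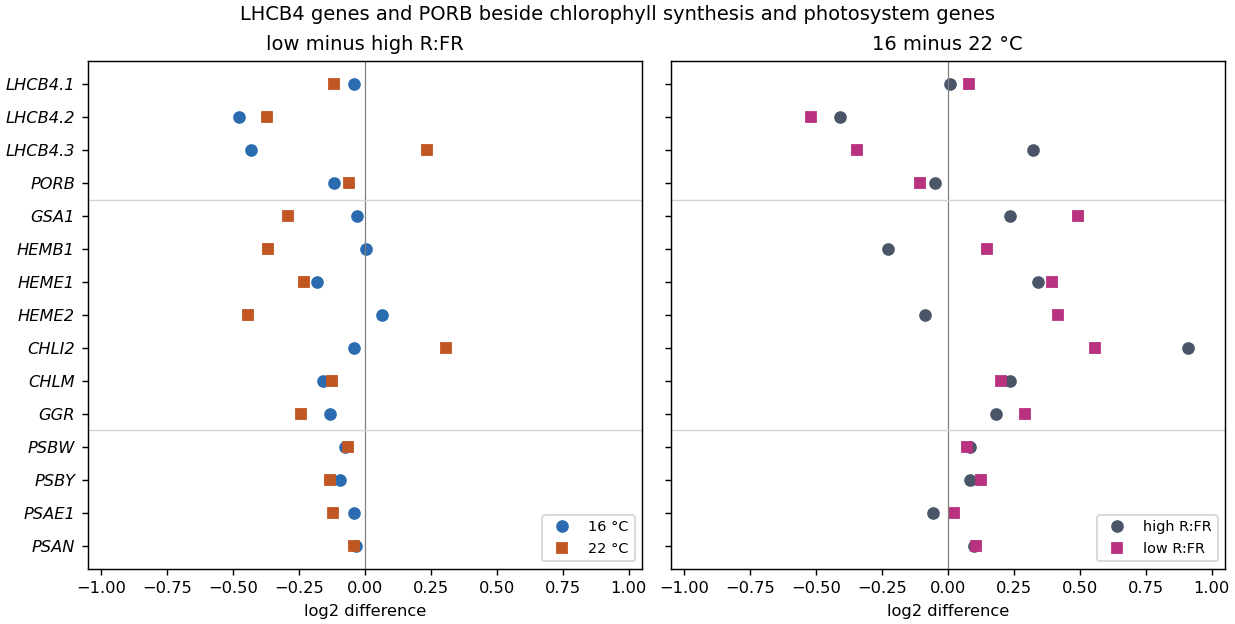
log2 differences (horizontal axes) of low minus high R:FR at each temperature (left) and of 16 minus 22 °C in each light (right) for the LHCB4 genes and PORB (top), 7 chlorophyll synthesis genes (middle) and 4 photosystem subunit genes (bottom), 1 array per condition and no error bars. On the right LHCB4.2 lies left of 0 in both lights, at -0.41 and -0.52, where all 7 chlorophyll synthesis genes lie right of 0 in low R:FR.

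Of the other lists, 1 of 10 chlorophyll breakdown genes was measured, NOL, which encodes a chlorophyll b reductase. Its signal was 163 in high and 182 in low R:FR at 16 °C, and 196 in high and 183 in low R:FR at 22 °C, and its light responses were within the local SD. Of 11 regulators of greening genes HYH was measured, a bZIP factor gene related to HY5. Its signal was 88.6 in high and 74.1 in low R:FR at 16 °C, and 62.6 in high and 49.8 in low R:FR at 22 °C, so it was lower in low R:FR (log2 -0.26 and -0.33, local SD 0.37 and 0.29) and higher at 16 °C (log2 0.50 and 0.57, local SD 0.40 and 0.48). HYH and LHCB4.2 were thus below 0 for light at both temperatures, as were 25.2% of all measured probe sets. At 16 °C the light response of HYH was within its local SD. HYH and LHCB4.2 lay on opposite sides of 0 for temperature. The factor gene itself passed no threshold in the limma fit (adjusted p = 0.822 for light and 0.163 for temperature). Genes for the import of antenna proteins and for state transitions, 8 in the list, had no named probe set and were not analysed here.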

How the data were processed

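RNA of 4 conditions was measured on 1 Affymetrix array each. The deposited values are linear intensity values, and the submitters' processing notes name MAS5 without a version, settings or detection calls. The values had the same 2% trimmed mean on each array, so the authors' signals were already scaled. Here arrays were scaled to that trimmed mean, lower values were raised to a floor at the 30th percentile of all signals (14.5), and values were put on the log2 scale. A probe set counted as measured if its mean log2 reached the 40th percentile (23.2 as a signal). The 64 control probe sets were left out. Names came from the platform's gene table, updated to RefSeq symbols through the gene number. Single pairs of arrays were compared by size (2-fold) without a test. The only test was limma 3.58.1 in R 4.3.3 with terms for light and temperature and a trended eBayes, checked on simulated data. The simulated effects were larger than those of the 4 genes, with an equal SD for all probe sets and no interaction. The check therefore does not cover effects of the size described here. The local SD is the scaled median absolute deviation over 500 probe sets. The members and 11 gene lists (125 genes, 21 with a named probe set, 19 measured) were chosen with earlier results of these data known. The rule named the 4 genes, the listed genes with a probe set, and the 3 nearest named patterns of each. The lists of seed storage, epidermis and phloem markers had no named probe set. Alternatives were the values as deposited, other scalings and floors, a pseudocount, no filter, a 3-fold threshold and no trend.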

Additional observations from a re-analysis of the deposited data

Results flagged for a closer look

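For 5 of the 19 measured genes of the lists the light response was below 0 at one temperature and above 0 at the other. Each condition had 1 array, and the difference was not tested. The light response at 16 °C minus that at 22 °C was log2 -0.67 for LHCB4.3 (-0.43 and 0.24). It was 0.51 for HEME2 (0.06 and -0.44), 0.37 for HEMB1 (0.0049 and -0.37), -0.35 for CHLI2 (-0.04 and 0.31) and 0.26 for NOL (0.16 and -0.10). The values of HEME2, HEMB1 and CHLI2 at 16 °C and both values of NOL were within the local SD. Of all measured probe sets 23.8% were below 0 at 16 °C and above 0 at 22 °C, and 22.9% the other way. A change of side was thus common on these arrays.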

How the results depend on the processing

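No paired analysis was possible because each condition has 1 array and the labels carry no replicate numbers, and for the same reason no array could be left out. The log2 differences of LHCB4.1, LHCB4.2, LHCB4.3 and PORB were recomputed 120 times over the 5 comparisons and 6 alternatives, and each moved from its main value by less than its local SD and stayed short of 2-fold. The sign turned in 5 of the 120, 2 with median scaling (PORB, both temperature comparisons, at 0.07) and 3 with quantile normalization (LHCB4.1, both temperature comparisons at -0.03 and -0.05, and the difference of light responses at -0.02). The values of LHCB4.2 lay between -0.48 and -0.47 for light at 16 °C, -0.42 and -0.31 at 22 °C, -0.55 and -0.29 for temperature in high and -0.70 and -0.34 in low R:FR. In the limma fit the temperature effect was 0.0699 for PORB and 0.13 for LHCB4.3 with median scaling, and -0.0368 for LHCB4.1 and -0.63 for LHCB4.2 with quantile normalization. The limma fit's 7 calls for light became 10 with median scaling, quantile normalization or a pseudocount, 3 with a lower floor (10th percentile), and 0 with a higher one (50th), no filter or no trend (unadjusted p under 0.05 for 727, 1029 and 876). Its 191 calls for temperature became 315, 272, 45, 24 and 0 in that order (unadjusted 2154, 2332 and 2638).

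The counts of all probe sets past 2-fold depend on the floor, which the 4 genes are too bright to reach. Higher and lower in low R:FR were 251 and 396 at 16 °C, which became 119 and 205 with the floor raised to the 50th percentile, 124 and 257 under a pseudocount, and 74 and 109 at 3-fold. At 22 °C 138 and 68 became 63 and 18, 63 and 15, and 27 and 4, in that order. For the difference 315 and 568 became 124 and 284, 135 and 341, and 69 and 162, with 501 higher without a filter. For temperature in high R:FR 151 and 432 became 70 and 224, 59 and 226, and 24 and 78. In low R:FR 221 and 902 became 144 and 536, 116 higher with a pseudocount, and 34 and 293. Median scaling moved the split to 105 higher and 86 lower for light at 22 °C, 221 and 311 for temperature in high and 419 and 651 in low R:FR. It moved the median of all measured probe sets from -0.04 to 0.07 and from -0.05 to 0.12 in these temperature comparisons. The cause was not tested.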
